A study of Mus musculus with 6 samples.

Results

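The insulin-like growth factor (IGF) system of cultured mouse hepatic stellate cells was described through 10 genes chosen by name. They encode a ligand (Igf1), 3 receptors (Igf1r, Igf2r and Insr), a receptor adaptor (Irs1) and 5 binding proteins (Igfbp2, Igfbp3, Igfbp4, Igfbp6 and Igfbp7). All 10 were found among the 13341 genes of the deposited table, and 9 of them were among the 10540 genes that were tested. Cells labelled Nbr1 knock-out (Nbr1KO) were set against cells labelled wild type (WT), with 3 libraries in each group. Both groups came from liver and grew for 4 days in medium with 10% serum, with no further treatment. Nbr1 encodes an autophagy cargo receptor. The labels give no strain, sex or age, do not say how Nbr1 was removed or in which cells, and do not say whether replicates came from separate animals. The p-values therefore set the difference between the groups against the spread between these libraries, which may not be a spread between animals.

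IGF1 and IGF2 bind the IGF1 receptor, a tyrosine kinase related to the insulin receptor, and the activated receptors phosphorylate docking proteins such as IRS1, which recruit PI3-kinase. The IGF2 receptor, which is also the mannose-6-phosphate receptor, has no kinase and carries IGF2 and lysosomal enzymes to lysosomes. The IGF binding proteins hold the ligands outside the cell and are cut by proteases that free them. In liver, hepatocytes release most circulating IGF1, and stellate cells are among the cells that carry the IGF1 receptor.

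The values are normalized counts of reads from the 3' end of each transcript, so a level does not grow with transcript length. Recovered reads per library came to between 1648800 and 2276529 in Nbr1KO and between 1508518 and 2383879 in WT. Of 15 markers of stellate cells, 11 were measured, and Des, Lrat, Reln and Ngfr were not analysed here. These markers moved with the groups. The 11 summed to between 18519 and 22847 normalized counts in Nbr1KO and between 8421 and 11404 in WT. By limma 6 of them rose (Pdgfrb, Hand2, Lhx2, Col1a1, Col1a2 and Acta2) and 0 fell, where 4.67% of all tested genes rose and 2.25% fell. Nbr1 itself stood at 204, 188 and 176 normalized counts in Nbr1KO and at 204, 278 and 289 in WT. Its limma adjusted p was 0.22, or 0.0216 without WT library 1, in a fit that called 21.1% of all tested genes. Reads from the 3' end do not check a deletion placed elsewhere. Sqstm1, a related cargo receptor, stood at 817, 645 and 859 in Nbr1KO against 24.0, 10.9 and 12.7 in WT, so the groups are named by their labels and each direction rests on them. Nbr1KO libraries 1 and 3 and WT library 1 stood apart from the other 3 libraries in the same direction. These are called library sets A and B below, they were found from the data, and nothing in the labels names them a batch.

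Of the 9 tested genes, Igf1 and Irs1 rose and Igfbp6 fell in Nbr1KO. By limma with Benjamini-Hochberg adjustment over all tested genes, 2 of the 9 were higher, where 4.67% of all tested genes were, and 1 was lower, where 2.25% were. In either direction 3 of the 9 passed, against 6.92% of all tested genes. The values of the 2 groups did not overlap for 6 of the 9, where 30.1% of all tested genes did not overlap. Of these 6, 4 were higher in Nbr1KO and 2 lower, where 16.5% and 13.6% of all tested genes were. The median log2 change was 0.05 over the 9 genes and -0.01 over all tested genes. The members were chosen with earlier results of these data known, so these shares describe them only.

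**Figure D1:**
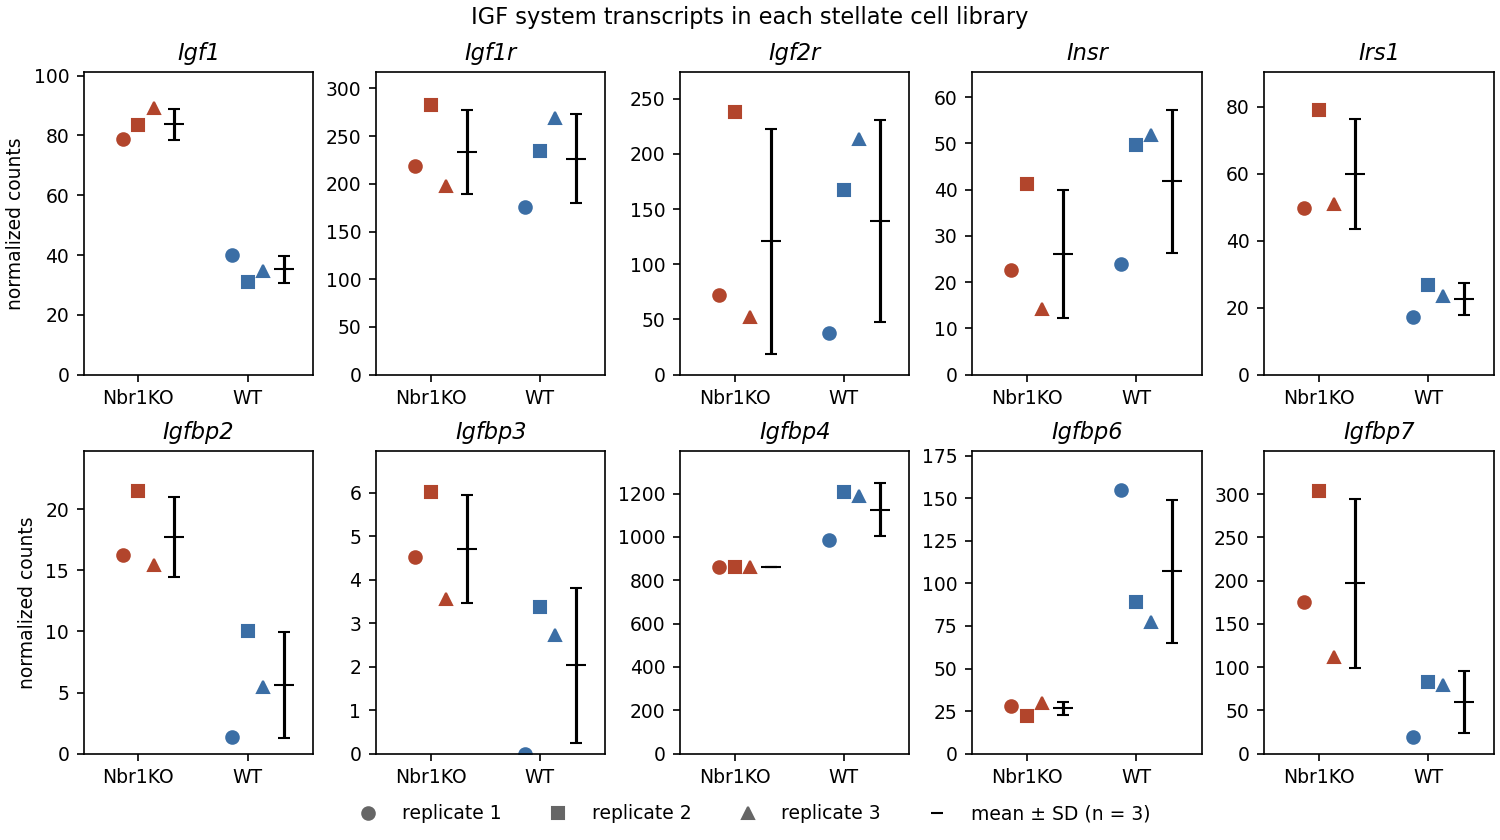
Normalized counts (vertical axes, linear, from 0) of the 10 IGF system genes in each Nbr1KO and WT library. Symbols mark the replicate and bars the group mean ± SD (n = 3). Igf1 and Irs1 lie higher and Igfbp6 lower in Nbr1KO with no overlap, while Igf1r, Igf2r and Insr overlap between the groups.

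Igf1, the ligand, had 78.8, 83.4 and 89.0 normalized counts in Nbr1KO libraries 1 to 3, against 40.0, 31.1 and 34.5 in WT libraries 1 to 3. All 3 Nbr1KO values lay above all WT values, and the spread within either group was small beside the gap. The group means were 83.7 ± 5.13 in Nbr1KO and 35.2 ± 4.52 in WT (SD, n = 3 each), 2.38-fold higher in Nbr1KO (log2 change 1.23, SE 0.19, limma adjusted p = 0.0121). Behind these values stood 259 reads in Nbr1KO and 105 in WT. The log2 change was 1.05 within library set A and 1.32 within set B. Markers of the other liver sources of IGF1 were few. The 4 measured of 8 hepatocyte markers summed to between 13.8 and 43.9 normalized counts in Nbr1KO and between 33.6 and 48.1 in WT, and the 2 measured of 8 macrophage markers, Cd68 and Csf1r, to between 6.88 and 14.2 in Nbr1KO and between 6.36 and 14.7 in WT. The part of these markers, and of the stellate markers that were higher in Nbr1KO, in the rises of Igf1, Irs1 and Igf2 was not tested. Alb, the albumin gene that defines hepatocytes, stood at 17.2, 5.16 and 16.6 in Nbr1KO and at 25.4, 15.1 and 26.3 in WT. In bulk samples, fewer cells of a type and less RNA per cell cannot be told apart.

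Irs1, which encodes the docking protein that links the receptors to PI3-kinase, had 49.8, 79.1 and 51.0 normalized counts in Nbr1KO and 17.3, 26.9 and 23.6 in WT. Nbr1KO library 2 was the highest, and the lowest Nbr1KO library still stood above every WT library. The means were 60.0 ± 16.6 in Nbr1KO and 22.6 ± 4.84 in WT (SD, n = 3 each), 2.65-fold higher in Nbr1KO (log2 change 1.36, SE 0.28, limma adjusted p = 0.0362). Within library sets A and B the log2 change was 1.49 and 1.61. In GENCODE M21 an exon of a predicted gene, Gm9747, lies on the opposite strand across exons of Irs1. The sources used here do not state whether reads were counted by strand.

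Igfbp6, whose product binds IGF2 more tightly than IGF1, was the binding protein gene with the clearest difference. It had 28.1, 22.3 and 29.7 normalized counts in Nbr1KO, against 155, 89.0 and 77.2 in WT. WT library 1 was the highest, and the other 2 WT libraries were also well above Nbr1KO. The means were 26.7 ± 3.85 in Nbr1KO and 107 ± 41.8 in WT (SD, n = 3 each), 4.01-fold lower in Nbr1KO (log2 change -1.91, SE 0.30, limma adjusted p = 0.0137). The log2 change was -2.38 within library set A and -1.85 within set B. Of 7 mesothelial markers 6 were measured, and they summed to between 1005 and 1113 normalized counts in Nbr1KO and between 1378 and 1589 in WT, most of it from Gpm6a. By limma 1 of the 5 tested passed, where 6.92% of all tested genes did. This was Upk3b, a mesothelial membrane protein gene (59.7, 88.5 and 55.8 in Nbr1KO against 188, 175 and 182 in WT, limma adjusted p = 0.0112). Wt1, Krt19 and Gpm6a also lay lower in Nbr1KO, short of the threshold (limma adjusted p = 0.0557, 0.148 and 0.167). Krt8 lay lower too, with 1 read in Nbr1KO and 13 in WT, and was not tested. Only Msln, the mesothelin gene, lay the other way, at 26.3, 23.2 and 19.0 in Nbr1KO against 16.0, 9.24 and 17.3 in WT (limma adjusted p = 0.268). The part of these mesothelial markers in the change of Igfbp6 was not tested.

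The calls of these 3 genes were lost in some fits with 1 library left out, while each change kept its direction. Calls over all genes fell as well, without Nbr1KO library 1, 2 or 3 or WT library 2 or 3. They went from 729 to between 200 and 338. Without any 1 of Nbr1KO libraries 1 to 3 or WT libraries 2 and 3, Igf1 and Irs1 missed the threshold (limma adjusted p from 0.0547 to 0.0792 for Igf1 and from 0.0818 to 0.12 for Irs1). Without WT library 1 both passed, with limma adjusted p = 0.00385 for Igf1 and 0.0222 for Irs1, in a fit that called 21.1% of all tested genes. Igfbp6 missed it without Nbr1KO library 1, 2 or 3 (limma adjusted p = 0.0771, 0.0587 and 0.0617) and passed without any 1 WT library. Over these 6 fits the log2 change ran from 1.15 to 1.33 for Igf1, from 1.14 to 1.49 for Irs1 and from -2.11 to -1.61 for Igfbp6.

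**Figure D2:**
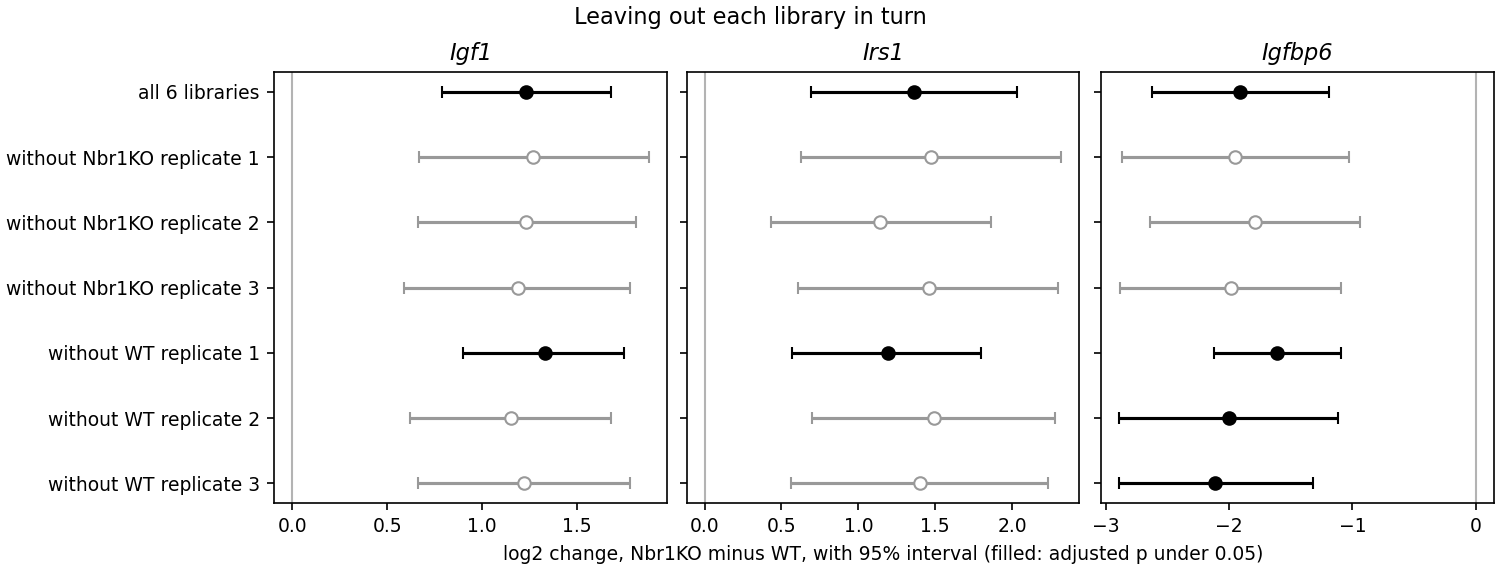
Log2 change of Igf1, Irs1 and Igfbp6, Nbr1KO minus WT on the log2(value + 1) scale (horizontal axes), in all 6 libraries and with each library left out (rows). Bars are 95% intervals from limma, and filled points have an adjusted p under 0.05. No interval reaches 0. The adjusted p is above 0.05 in 5 of the 6 fits with a library left out for Igf1 and for Irs1, and in 3 of the 6 for Igfbp6.

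The sequence before the start of each of these 3 genes is shown because they were the members that passed the test. The RefSeq promoter table, of build GRCm38.p6, held 9 of the 10 genes, and Insr was not analysed here. The authors' build is GRCm39, so the positions below belong to GRCm38.p6 only. Each line gives the 250 bases before the start, 5' to 3' on the strand of the gene. Bases just after the start were found in GENCODE M21 transcripts of the gene for Igf1, but not for Irs1 or Igfbp6. The starts of Irs1 and Igfbp6 therefore rest on the promoter table alone. Capitals mark matches on either strand to 5 short motifs, which do not overlap each other in these windows. The GC box was searched as GGGCGG. The TATA box was searched as TATAAA. The forkhead motif was searched as TGTTTAC. The E-box was searched as CACGTG. The AP-1 motif was searched as TGANTCA.
Igf1, chr10:87860861-87861110, plus strand: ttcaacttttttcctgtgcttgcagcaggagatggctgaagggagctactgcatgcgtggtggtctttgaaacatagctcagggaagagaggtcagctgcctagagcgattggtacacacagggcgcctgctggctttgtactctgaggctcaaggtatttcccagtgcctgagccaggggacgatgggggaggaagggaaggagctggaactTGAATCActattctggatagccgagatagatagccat
Irs1, chr1:82291440-82291689, minus strand: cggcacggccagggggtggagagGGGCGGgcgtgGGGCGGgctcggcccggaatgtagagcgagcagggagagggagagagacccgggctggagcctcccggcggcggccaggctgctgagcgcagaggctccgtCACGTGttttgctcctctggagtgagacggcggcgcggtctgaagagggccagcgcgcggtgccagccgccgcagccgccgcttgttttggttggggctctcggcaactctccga
Igfbp6, chr15:102143936-102144185, plus strand: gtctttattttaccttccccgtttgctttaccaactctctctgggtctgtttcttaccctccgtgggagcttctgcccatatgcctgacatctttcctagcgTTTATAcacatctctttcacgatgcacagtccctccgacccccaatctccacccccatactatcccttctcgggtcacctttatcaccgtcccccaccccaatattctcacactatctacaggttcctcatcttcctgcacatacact

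The 3 sequences had little in common. Irs1 was rich in G and C, at 72.4% of its bases, against 52.8% for Igf1 and 49.6% for Igfbp6, where the median over all 32851 promoters of the table was 52.4%. Irs1 held 2 GC boxes and an E-box, starting 227, 216 and 115 bases before the start, and these motifs occur in 32.7% and 6.02% of all promoters. Igf1 held an AP-1 motif starting 37 bases before the start, as 6.75% of promoters hold anywhere in the window. Igfbp6 held a TATA box in reverse, starting 148 bases before the start, where 12.4% of promoters hold TATAAA on either strand. The forkhead motif, found in 3.17% of promoters, was in none of the 3. A match describes letters and not a site of binding.

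The receptor genes did not pass the test. Igf1r, the signalling receptor of both ligands, had 219, 283 and 198 normalized counts in Nbr1KO and 176, 234 and 269 in WT. The values of the groups were interleaved, at 233 ± 44.1 in Nbr1KO and 226 ± 46.8 in WT (SD, n = 3 each). The log2 change was 0.05 with a 95% interval from -0.47 to 0.56 (limma adjusted p = 0.93), so a change of more than 0.56 up or 0.47 down lay outside that interval. Insr, the insulin receptor, was lower in level, with 22.6, 41.3 and 14.2 normalized counts in Nbr1KO and 24.0, 49.5 and 51.8 in WT (log2 change -0.71, 95% interval from -1.81 to 0.39, limma adjusted p = 0.435).

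Igf2r, the receptor that clears IGF2, varied more within the groups than between them. It had 72.4, 238 and 52.2 normalized counts in Nbr1KO and 37.4, 167 and 213 in WT. The 3 libraries of set A, 2 Nbr1KO and 1 WT, lay between 37.4 and 72.4, and the 3 of set B between 167 and 238, with no overlap. Its log2 change was -0.19 (95% interval from -2.07 to 1.69, limma adjusted p = 0.925), and 0.70 within set A and 0.33 within set B. The direction of this uncalled value thus differed between the pooled fit and both sets. The other receptor genes showed the same division. Igf1r lay between 176 and 219 in set A and between 234 and 283 in set B, and Insr between 14.2 and 24.0 in set A and between 41.3 and 51.8 in set B. With both groups pooled, the other 7 genes overlapped between the sets, but a difference between the groups can hide a division there. Within each group, Irs1, Igfbp2, Igfbp3 and Igfbp7 also lay lower in set A, and Igfbp6 lay higher. Igfbp7 had 176 and 112 in set A and 303 in set B in Nbr1KO. In WT it had 18.7 in set A and 82.3 and 79.0 in set B. Igf1 did not divide this way in Nbr1KO. The sets were found from all genes, these included.

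**Figure D3:**
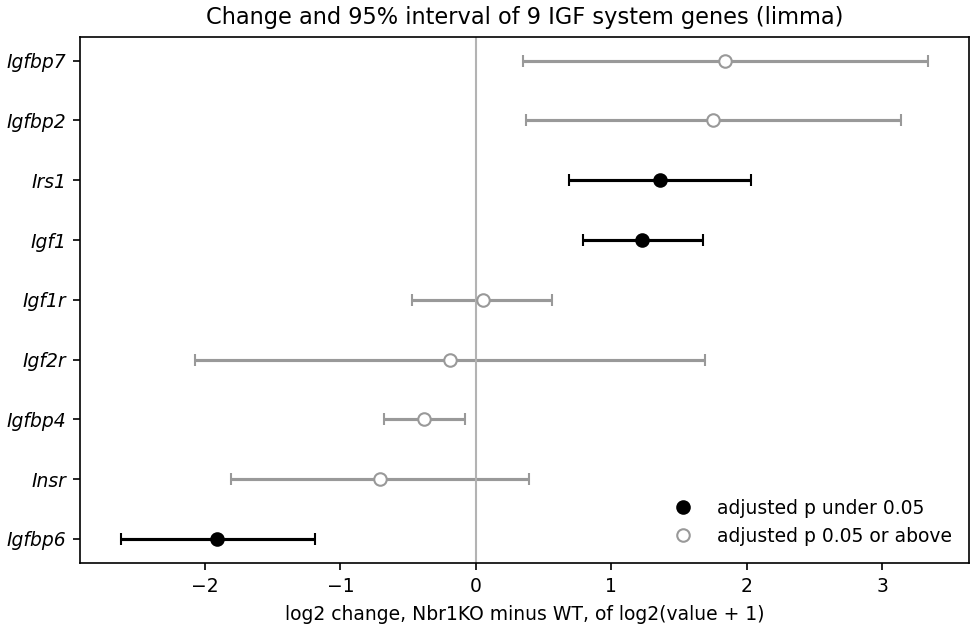
Log2 change, Nbr1KO minus WT on the log2(value + 1) scale (horizontal axis), with 95% intervals from limma for the 9 tested IGF system genes. Filled points have an adjusted p under 0.05. Igf1 and Irs1 lie above 0 and Igfbp6 below it, and the interval of Igf2r, from -2.07 to 1.69, is the widest.

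Igfbp4, which encodes a binding protein that inhibits IGF action until it is cut by the protease PAPPA, was the most abundant of the 10 transcripts in both groups. It had 859.1, 859.5 and 859.1 normalized counts in Nbr1KO libraries 1 to 3, from 949, 1000 and 724 reads, and 985, 1206 and 1188 in WT. Every Nbr1KO value lay below every WT value, with WT library 1 the nearest. By limma the log2 change was -0.38 with SE 0.13, short of the threshold at an adjusted p of 0.133. Without WT library 1 it was -0.48 and passed (limma adjusted p = 0.0141), in a fit that called 21.1% of all tested genes. WT library 1 is the only WT library of set A, so leaving it out also mixes group with library set. Igfbp4 and Irs1 were the genes nearest the threshold outside and inside it.

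Igfbp7, whose product binds IGFs weakly and is deposited around blood vessels, had 176, 303 and 112 normalized counts in Nbr1KO and 18.7, 82.3 and 79.0 in WT. The groups did not overlap, but both were widely spread, at 197 ± 97.7 in Nbr1KO and 60.0 ± 35.8 in WT (SD, n = 3 each). Its log2 change was 1.84 with SE 0.63, short of the threshold in limma (adjusted p = 0.143). On recovered reads it was short of it in edgeR (adjusted p = 0.132, where 7.27% of genes passed) and past it in DESeq2 (adjusted p = 0.0334, where 9.02% passed). It was 2.84 within library set A, 1.90 within set B and 1.16 without WT library 1 (limma adjusted p = 0.0625). Exons of Polr2b lie on the opposite strand across exons of Igfbp7 in GENCODE M21, and Polr2b had 178, 229 and 167 normalized counts in Nbr1KO and 204, 254 and 272 in WT. The 1 measured of 7 sinusoidal endothelial markers, Kdr, stood at 8.15, 6.02 and 8.31 in Nbr1KO and at 4.00, 3.36 and 5.45 in WT.

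Igfbp2 and Igfbp3 were scarce. Igfbp2, which encodes a circulating carrier of IGFs, had 16.3, 21.5 and 15.4 normalized counts in Nbr1KO and 1.33, 10.1 and 5.45 in WT. The groups did not overlap, and WT library 1 held 1 read. Its log2 change of 1.75 (95% interval from 0.37 to 3.14) did not pass limma (adjusted p = 0.135), and without WT library 1 it was 1.13 (limma adjusted p = 0.059). It cleared the minimum of 10 in 3 libraries through the 3 Nbr1KO libraries and WT library 2. Igfbp3, the main serum carrier of IGFs, did not clear it and was not tested, with 4.53, 6.02 and 3.56 normalized counts in Nbr1KO and 0, 3.36 and 2.72 in WT. These stand for 15 reads in Nbr1KO and 7 in WT, a ratio of 2.1 per library scale with an exact 95% binomial interval from 0.804 to 6.08, which covers counting error only. A difference in Igfbp3 was not detectable at this depth.

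Summed over the 5 binding protein genes, Nbr1KO libraries 1 to 3 held 1084, 1213 and 1019 normalized counts and WT libraries 1 to 3 held 1159, 1391 and 1352. The sums of the groups overlapped, at 1105 ± 98.5 in Nbr1KO and 1301 ± 124 in WT (SD, n = 3 each). Igfbp4 made up 79.3%, 70.9% and 84.3% of it in Nbr1KO and 84.9%, 86.7% and 87.8% in WT. Igfbp7 made up 16.2%, 25% and 10.9% in Nbr1KO, against 1.61%, 5.92% and 5.84% in WT. Igfbp6 took 2.59%, 1.84% and 2.91% in Nbr1KO, against 13.3%, 6.4% and 5.71% in WT. Igfbp2 took between 1.5% and 1.77% in Nbr1KO and between 0.115% and 0.725% in WT, and Igfbp3 between 0.349% and 0.496% in Nbr1KO and between 0% and 0.242% in WT. The shares of the groups did not overlap for any of the 5 genes. As counts, 30.1% of all tested genes did not overlap, which is not a like measure for shares of 1 sum. For Igfbp4 the nearest shares were 84.3% in Nbr1KO and 84.9% in WT, and Igfbp3 rested on 15 reads in Nbr1KO and 7 in WT. Shares in a library add up to the whole, so they do not vary separately. These are shares of transcript ends and were not tested, since a test of a score over chosen genes would not be independent of the choice.

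**Figure D4:**
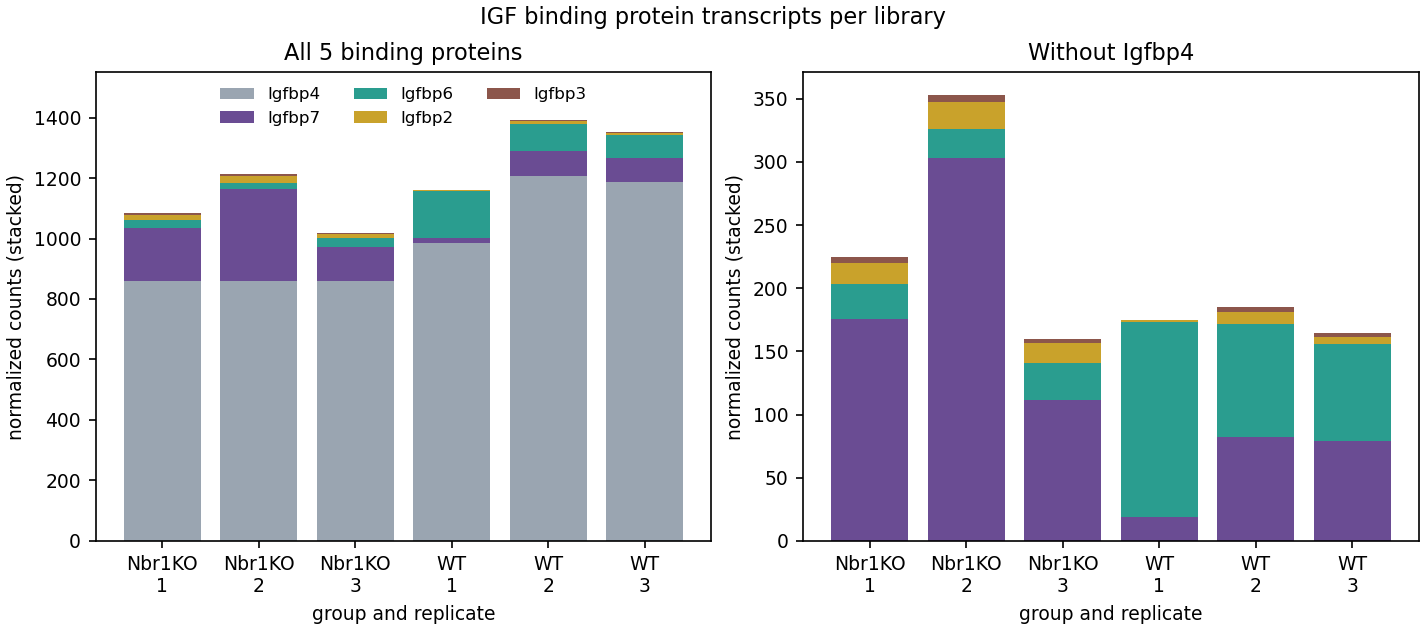
Stacked normalized counts (vertical axes, from 0) of the 5 IGF binding protein genes in each library, with all 5 on the left and Igfbp4 left out on the right. Igfbp4 is the largest part in all 6 libraries. Among the rest, Igfbp7 leads in the 3 Nbr1KO libraries, and Igfbp6 is a larger part in the 3 WT libraries than in Nbr1KO.

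By level, Igfbp4 came first and Igf1r second in both groups. In Nbr1KO the order then ran Igfbp7, Igf2r, Igf1, Irs1, Igfbp6, Insr, Igfbp2 and Igfbp3. In WT it ran Igf2r, Igfbp6, Igfbp7, Insr, Igf1, Irs1, Igfbp2 and Igfbp3. In Nbr1KO the ranges of neighbours overlapped from Igf1r through Irs1 and from Igfbp6 through Igfbp2, so the order inside those stretches is not larger than the spread. In WT they overlapped from Igf1r through Igf1 and between Igfbp2 and Igfbp3.

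The genes that followed Igf1 and Igfbp6 most closely across the 6 libraries were found among 6884 other tested genes with a mean of at least 50. For Igf1 the highest Pearson r on log2 values were with Clmp, which encodes an adhesion molecule of cell junctions, Pigbos1 and Fam217b (r = 0.9988, 0.9971 and 0.9966). For Igfbp6 they were with Dnttip2, the cyclophilin gene Ppid and the kinesin gene Kif20b (r = 0.9971, 0.9969 and 0.9967). With 6 points in 2 groups, such values follow largely from the difference between the groups and describe likeness only.

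Among 70 other reported genes of IGF and insulin signalling, 59 were measured and 56 tested, of which 5 rose and 1 fell, 6 of 56 where 6.92% of all tested genes passed. Their median log2 change was 0.08. The largest increase among the 56 was in Grb10, which encodes an adaptor that binds the IGF1 and insulin receptors and restrains them.

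Igf2, the other ligand gene, had 224, 199 and 186 normalized counts in Nbr1KO against 22.7, 42.8 and 52.7 in WT. Every Nbr1KO library was well above every WT library. It was 5.15-fold higher in Nbr1KO (log2 change 2.41, SE 0.31, limma adjusted p = 0.00683), a call lost without Nbr1KO library 1 (adjusted p = 0.0549). In GENCODE M21 exons of Gm49394 lie across Igf2 on the same strand, so that counting by strand would not separate their reads, and exons of Igf2os lie across it on the opposite strand. Together Igf1 and Igf2 summed to 302, 282 and 275 normalized counts in Nbr1KO and to 62.7, 73.9 and 87.2 in WT, and Igf2 was the larger part in all libraries but WT library 1. Of 3 genes for IGF2 mRNA-binding proteins, Igf2bp1 fell, with 206, 184 and 230 in Nbr1KO against 379, 301.5 and 335 in WT (limma adjusted p = 0.0449). Igf2bp2 had 114, 113 and 152 in Nbr1KO against 76.0, 30.2 and 33.6 in WT and did not pass (limma adjusted p = 0.0566). Exons of Gm29202 lie across Igf2bp1 on the opposite strand and Mir3063 on the same strand. The call of Igf2bp1 was lost in 9 of 16 alternatives (adjusted p from 0.0132 to 0.199 over all 16). The ligand and carrier genes Ins1, Ins2, Igfbp1, Igfbp5, Igfals and Igfbpl1 of the same list were not analysed here.

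Of the genes for proteases that cut IGF binding proteins and their inhibitors, 3 were tested. Adam12, which encodes a metalloprotease able to cut IGFBP3 and IGFBP5, rose to 116, 84.2 and 110 normalized counts in Nbr1KO, against 34.7, 31.1 and 28.2 in WT. That is 3.31-fold (log2 change 1.69, SE 0.21, limma adjusted p = 0.00533, or 0.0516 without Nbr1KO library 1). Htra1, a serine protease gene, had 60.7, 49.0 and 46.3 in Nbr1KO against 133, 81.5 and 81.7 in WT and did not pass (limma adjusted p = 0.0946). Pappa and Stc1 did not clear the minimum of 10 in 3 libraries and were left out of the test. Pappa had 14 reads in Nbr1KO and 0 in WT, and Stc1 had 20 in Nbr1KO and 5 in WT.

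Inhibitors of the pathway included the strongest calls. Of 11 tested, 3 rose and 0 fell, where 4.67% of all tested genes rose and 2.25% fell. Grb10 had 655, 676 and 733 normalized counts in Nbr1KO and 13.3, 15.1 and 25.4 in WT, with no library between these ranges. It was 38.3-fold higher in Nbr1KO (688 ± 40.7 in Nbr1KO and 18.0 ± 6.52 in WT, SD, n = 3 each, log2 change 5.23, SE 0.25, limma adjusted p = 0.000337). Socs2, which encodes a suppressor of growth hormone and IGF1 receptor signalling, had 199, 156 and 177 in Nbr1KO against 38.7, 45.4 and 34.5 in WT, 4.48-fold higher in Nbr1KO (log2 change 2.14, SE 0.19, limma adjusted p = 0.0016). Grb10 and Socs2 passed in all 16 alternatives. Trib3, which encodes a pseudokinase that binds AKT, had 44.4, 38.7 and 46.3 in Nbr1KO against 17.3, 13.4 and 9.08 in WT (log2 change 1.66, SE 0.29, limma adjusted p = 0.0189). It was lost without any 1 of Nbr1KO libraries 1 to 3 and WT libraries 2 and 3 (adjusted p up to 0.111).

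Among the reported genes that carry the signal inside the cell, other than Irs1, none passed by limma in all 6 libraries. Among the 8 tested adaptor genes the calls numbered 0 by limma, by edgeR and by DESeq2, and 1 gene had an unadjusted limma p under 0.05. Over all tested genes 6.92% passed by limma and 22.6% had an unadjusted p under 0.05, which is the background for this list and the next 2. Sh2b2 had the smallest p, with 18.1, 12.9 and 20.2 normalized counts in Nbr1KO against 1.33, 5.04 and 8.17 in WT (limma adjusted p = 0.106). Without WT library 1 its limma adjusted p was 0.0451, in a fit that called 21.1% of all tested genes. Sh2b2 cleared the minimum of 10 through the 3 Nbr1KO libraries alone. Shc1, a docking protein gene of the RAS branch, came next, with 149, 136 and 164 in Nbr1KO against 183, 187 and 170 in WT (limma adjusted p = 0.347). Irs2, the paralog of Irs1, had 171, 179 and 138 in Nbr1KO against 148, 196 and 221 in WT (log2 change -0.20, limma adjusted p = 0.636). The difference between the changes of Irs1 and Irs2 was not tested. The 21 reported genes of the PI3K, AKT, mTOR and FOXO branch, from which 1 listed gene was left out, gave 0 calls by limma, edgeR and DESeq2, and 4 had an unadjusted limma p under 0.05. Rps6kb1, the gene of S6 kinase, had the smallest p, with 347, 364 and 324 in Nbr1KO against 490, 451 and 431 in WT (log2 change -0.41, limma adjusted p = 0.114). Foxo4, a forkhead factor gene, came next, with 56.1, 33.5 and 58.1 in Nbr1KO against 176, 76.4 and 79.9 in WT (log2 change -1.08, limma adjusted p = 0.157). The 9 tested genes of the RAS and MAPK branch likewise gave 0 calls by each of these tools, and 1 had an unadjusted limma p under 0.05. This was Braf, a RAF kinase gene, with 91.4, 110 and 108 in Nbr1KO against 207, 144 and 152 in WT (limma adjusted p = 0.095). Mapk3, the ERK1 gene, came next, with 459, 388 and 507 in Nbr1KO against 559, 544 and 546 in WT (limma adjusted p = 0.281).

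**Figure D5:**
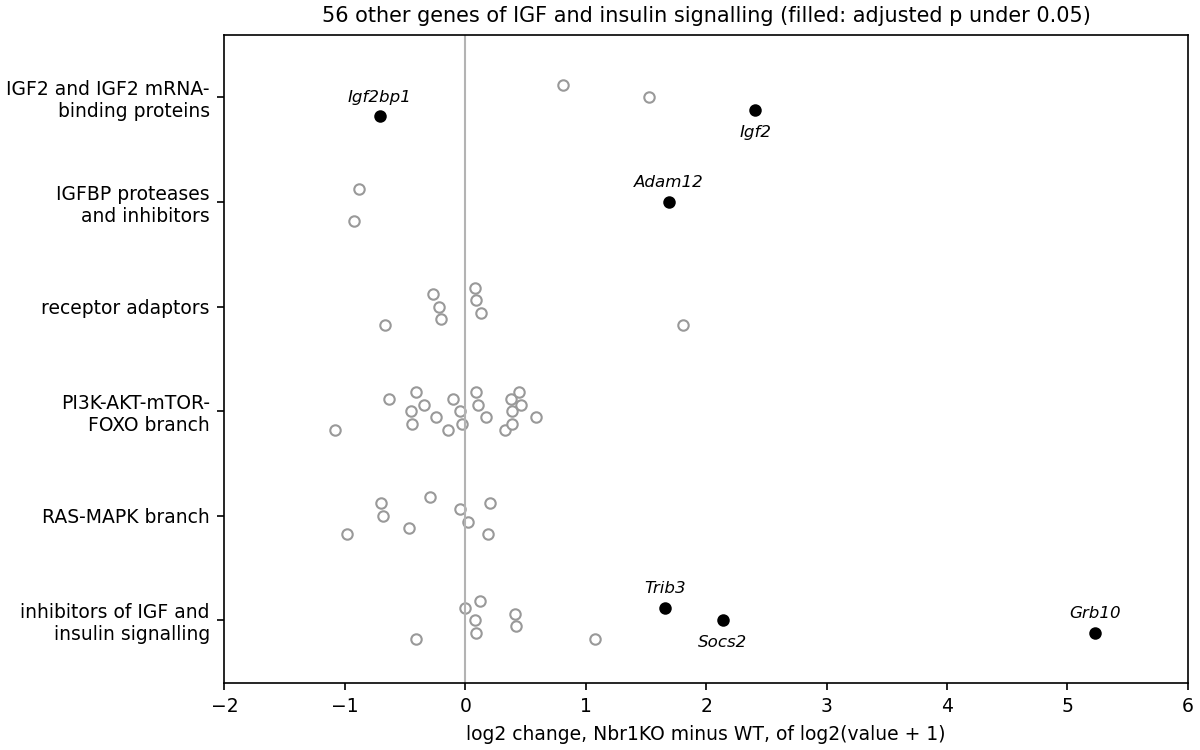
Log2 change, Nbr1KO minus WT on the log2(value + 1) scale (horizontal axis), of the 56 tested genes of IGF and insulin signalling outside the 10 described first, by list (rows). Vertical position within a row only separates the points. Filled points have an adjusted p under 0.05 and are named, and Grb10 stands apart at 5.23.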

How the data were processed

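RNA 3' ends were sequenced from 6 libraries, 3 Nbr1KO and 3 WT. The deposited signal is a count per gene divided by a library size factor. The submitters' processing notes name DESeq2 and GRCm39, and the sources used here state no aligner or annotation, nor whether strand or the optional molecular identifiers of the library kit entered the counting. Dividing by the value of 1 read in each library gave whole reads for all values in every library (tolerance 0.01), and these reads give the depth. Of 13341 genes, 10540 reached 10 in 3 or more libraries. These were compared on log2(value + 1) by the two-sided test of limma 3.58.1 (R 4.3.3), its trend option on and group the only term, with a Benjamini-Hochberg threshold of 0.05. Fold changes given as log2 are on that scale, which understates low genes. Intervals cover 95%. The fits were first tested on simulated data.

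Alternatives were pseudocounts, filters, scalings, edgeR 4.0.16 and DESeq2 1.42.0 on recovered reads, a replicate block, and each library left out. Values within the 2 library sets were added after seeing the data. The genes and lists were chosen with earlier results of these data known. Genes named were all members, every listed gene past the threshold or, with none, the 2 of smallest p, and the 3 genes most like each of the 2 members of smallest p. Of the PI3K list 1 gene is not reported here and is left out of the list counts. Igf2bp2, Htra1, Irs2, Polr2b, Alb, Kdr and the other markers were named after their values were seen. Promoters are from RefSeq (GRCm38.p6) and overlaps from GENCODE M21.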

Additional observations from a re-analysis of the deposited data

How the results depend on the processing

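The directions of Igf1, Irs1 and Igfbp6 held under every alternative run, and their calls held under both other pseudocounts, no filter, TMM, quantile normalization, limma without a trend, edgeR and DESeq2. The count of called members, 3, ran from 0 to 4 when 1 library was left out, with 0 without any Nbr1KO library, 1 (Igfbp6) without WT library 2 or 3, and 4 (adding Igfbp4) without WT library 1. DESeq2 called 4, adding Igfbp7, and a mean of at least 50 left 2, since Irs1 was then not tested. Over all genes 729 calls became 380 with a mean of at least 50, and ran from 200 (without Nbr1KO library 1) to 2228 (without WT library 1). Calls among the reported pathway genes, 6, became 8 by DESeq2, 7 with no filter and 4 with a mean of at least 50. They were 5 with quantile normalization and in limma without a trend. They ran from 2 to 13 with 1 library left out. The cause was not tested. Same-numbered libraries deviated together in 2 of 3 numbers (correlations 0.45, 0.70 and -0.62). These signs follow the library sets, so they cannot tell whether same-numbered libraries were paired. With the replicate block 476 genes, 3 members and 5 pathway genes were called. The summed binding protein level kept a log2 difference between -0.31 and -0.18. Depth limits Igfbp3, with 15 reads in Nbr1KO and 7 in WT. Igfbp2 had 56 reads in Nbr1KO and 19 in WT, a read ratio of 2.88 with a counting interval from 1.69 to 5.14.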

Other observations

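The 3 Nbr1KO values of Igfbp4 lay closer together than counting error alone gives. They were 859.1, 859.5 and 859.1 normalized counts, an SD of 0.22 (n = 3), while the counting SD of each library, the square root of its reads on the same scale, was 27.9, 27.2 and 31.9. The small spread of that group is therefore not a measure of its precision. In WT the counting SD was 36.2, 31.8 and 32.8, against an SD of 123 between the libraries. Of 5 cholangiocyte markers, which none of the comparisons used, 4 were measured, and they went different ways. Sox9 had 467, 473 and 496 normalized counts in Nbr1KO against 10.7, 13.4 and 21.8 in WT (limma adjusted p = 0.000337). Cdh1 had 95.05, 59.3 and 96.1 in Nbr1KO against 12.0, 3.36 and 2.72 in WT (limma adjusted p = 0.00802). Spp1 was lower in Nbr1KO, at 29.0, 27.5 and 33.2 against 78.7, 69.7 and 75.4 in WT (limma adjusted p = 0.0101). Krt7 was too low to test, and its values overlapped.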
